A study of Cricetulus griseus with 4 samples.

Results

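The 7 genes described here, LIG4, LIG3, RAD50, BRCA1, RPA3, ATM and UVRAG, work in the repair of broken DNA or in the signalling that follows a break. They were chosen for the role of repair in chromosomal instability, as the probes that the platform annotation names with 1 of these symbols and no other. Each of the 7 was on 1 probe, out of 1152 probes in all, of which 350 carry 1 gene symbol and stand for 347 genes.

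The study asked whether gene expression differs between chromosomally stable and unstable clones of the same genetic background. RNA of RT210B, a stable clone of Chinese hamster cells, was in the first channel of each of 4 two-channel arrays, and RNA of a pool of 2 unstable clones in the second. Unstable mixture 1 held clones LS12 and 10-107-9 in equal amounts, and unstable mixture 2 held clones Fe10-3 and 10-56-11 in equal amounts. Each mixture was measured on 2 arrays, numbered as replicates in the sample titles. The labels give no treatment, tissue, sort or time, and nothing says that the replicates came from separate cultures, so the p-values speak only of variation among these 4 hybridisations, which may be technical. A pool hides which of its clones carries a difference, and a smaller share of cells with a transcript and less of it per cell cannot be told apart.

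Each value is a log2 ratio of an array's channels, with each probe taken as the mean of its 2 spots and each array centred on its middle probe. A value of 1 is a ratio that lies a factor of 2 away from that of the middle probe. The labels do not settle which pool is the numerator: they name the pools in opposite order in title and description, with no dyes given. Genes are therefore placed on the positive or the negative side of the middle probe, and no pool is named in which they were higher. Before centring the middle probe stood at -0.12 and -0.22 in the first mixture and at -0.44 and -0.53 in the other. The spread also differed, with an SD over probes of 1.14 and 1.05 in mixture 1 against 0.80 and 0.47 in mixture 2. Of the 16 genes fixed as markers of epithelial, blood or mesenchymal cells, 0 were on a probe with 1 symbol, so no cell type could be checked.

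A double-strand break is rejoined along either of a pair of main routes. In end joining the broken ends are sealed directly, with DNA ligase IV as the last enzyme. In homologous recombination the ends are first trimmed to single strands and copied from the sister chromatid, a route that needs the RAD50 complex, the single-strand binding protein RPA and BRCA1. ATM is the kinase that senses breaks and starts the checkpoint, and cells that lack parts of these routes gain chromosome breaks and rearrangements.

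LIG4 and RPA3 stood farthest from the middle probe among the 7 in mixture 1 and in the mean of both mixtures, LIG4 on the positive and RPA3 on the negative side, and both passed the test in both comparisons. RAD50 on the negative side and UVRAG on the positive side passed only in the mean of both mixtures, while LIG3, BRCA1 and ATM passed in none of the 4 comparisons. The members that passed thus lay on both sides, as did all probes that passed. Those probes were 281 positive and 216 negative in mixture 1, and 250 positive and 196 negative in the mean of both. Of all 1152 probes, 43.1% passed in mixture 1, 38.7% in the mean of both mixtures and 0% in the other comparisons. On the 4 arrays in turn, 4, 2, 5 and 4 of the 7 were positive. The centring itself places as many of all probes above 0 as below it on each array.

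**Figure D1:**
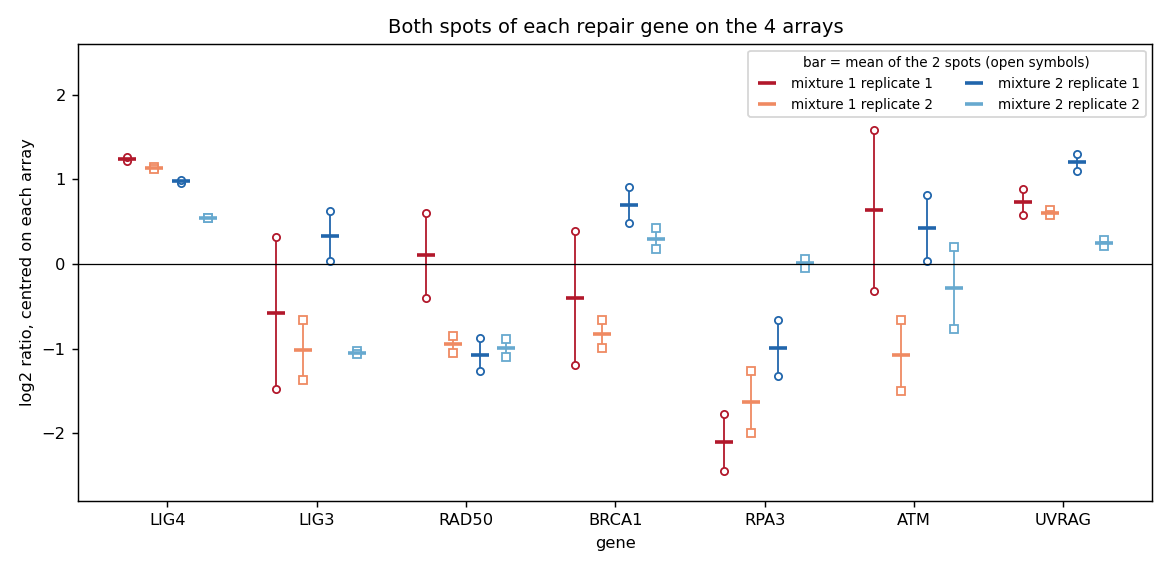
Centred log2 ratios (vertical axis) of the 7 genes (horizontal axis) on the 4 arrays, with open symbols for the 2 spots of a probe, joined by a line, and a bar for their mean. All 8 spots of LIG4 and of UVRAG lie above 0, and the spots of ATM lie up to 1.90 apart on 1 array.

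LIG4 (Entrez gene 3981, spots 49 and 50) encodes DNA ligase IV, which seals the ends in end joining together with XRCC4. Its log2 ratio was 1.24 and 1.13 in mixture 1 and 0.98 and 0.54 in mixture 2. It was thus positive on every array, and in log2 ratio the arrays of mixture 1 were both above those of mixture 2. By rank within the array the order was reversed. LIG4 lay above 89.3% and 80.4% of probes in mixture 1 and above 93.6% and 93.7% in mixture 2. The fitted value was 1.19 (SE 0.292, 2 arrays) in mixture 1, or 2.27-fold from the middle probe, with an adjusted p of 0.0140 in limma with Benjamini-Hochberg adjustment over all 1152 probes. In mixture 2 it was 0.76 (SE 0.292, limma adjusted p 0.249), which did not pass. Of all probes, 27.8% lay farther from 0 than LIG4 in mixture 1 and 16.8% in mixture 2.

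The 2 spots of LIG4 agreed closely. They differed by 0.053 and 0.023 in mixture 1 and by 0.040 and 0 in mixture 2. Only 0.347% of probes had a smaller mean difference between spots. Centring carries part of the value: as deposited, the spots of LIG4 were at 1.10 and 1.15 and at 0.92 and 0.90 in mixture 1, at 0.52 and 0.56 on replicate 1 of mixture 2, and both at 0.014 on replicate 2 of mixture 2. On that last array LIG4 was close to a ratio of 1 and lay above 93.7% of probes, because the array as a whole lay below 0.

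LIG3 (Entrez gene 3980, spots 1013 and 1014) encodes DNA ligase III, which seals single-strand breaks with XRCC1 and also serves mitochondrial DNA and a back-up form of end joining. It lay at -0.58 and -1.02 in mixture 1 and at 0.33 and -1.05 in mixture 2. The arrays of mixture 2 fell on both sides of 0, so the groups overlapped. The fitted values were -0.80 (SE 0.374, limma adjusted p 0.113) in mixture 1 and -0.36 (SE 0.374, limma adjusted p 0.580) in mixture 2, and neither passed. Its spots disagreed most on replicate 1 of mixture 1, at 0.32 and -1.48.

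The 2 ligases differed on every array. LIG4 minus LIG3, a difference of log2 ratios that no centring can change, was 1.82 and 2.15 in mixture 1 and 0.64 and 1.59 in mixture 2. Its mean was 1.55 (SD 0.649, n = 4 arrays), with all 4 arrays on 1 side. With ratios adjusted for the agreement of duplicate spots, an alternative described further on, the mean was 0.90. This difference is a description of 2 probes picked by role, and it was not tested.

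RAD50 (Entrez gene 10111, spots 629 and 630) encodes the long coiled-coil subunit of the MRE11-RAD50-NBN complex, which binds and tethers broken ends and activates ATM. Its log2 ratio was 0.10 and -0.95 in mixture 1 and -1.07 and -0.99 in mixture 2. The arrays of mixture 2 lay close together and below both arrays of mixture 1, which were 1.05 apart. On replicate 1 of mixture 1 its spots were at 0.60 and -0.40, on either side of 0, and the other 6 of its spots were negative. The fitted value was -0.43 (SE 0.334, limma adjusted p 0.322) in mixture 1 and -1.03 (SE 0.334, limma adjusted p 0.249) in mixture 2.

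BRCA1 (Entrez gene 672, spots 561 and 562) encodes a ubiquitin ligase subunit that promotes recombination and the checkpoint. It lay at -0.40 and -0.83 in mixture 1 and at 0.69 and 0.30 in mixture 2. Both arrays of mixture 1 were negative and both arrays of mixture 2 positive, an arrangement that 1 of the 7 genes showed, as did 11.5% of all probes in either direction. The fitted values were -0.61 (SE 0.299, limma adjusted p 0.126) in mixture 1 and 0.49 (SE 0.299, limma adjusted p 0.358) in mixture 2. The difference between the mixtures was -1.11 (SE 0.423), with a limma adjusted p of 0.167, which did not pass. One spot of BRCA1 went against this order, at 0.39 beside -1.19 on replicate 1 of mixture 1. On replicate 2 of mixture 1 a spot of BRCA1 held the deposited value -0.8875. Spots of LIG3, ATM and the list genes CCNH and RFC3 held that same value on that array. Why they share it was not tested, so the values of these genes there are to be read with care.

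RPA3 (Entrez gene 6119, spots 487 and 488) encodes the smallest subunit of replication protein A, the trimer that coats single-stranded DNA in replication and in recombination. Its log2 ratio was -2.11 and -1.63 in mixture 1 and -0.99 and 0.0053 in mixture 2. Both arrays of mixture 1 were below both arrays of mixture 2, and replicate 2 of mixture 2 lay at the middle of its array. In mixture 1 the fitted value was -1.87 (SE 0.339), or 3.65-fold from the middle probe, with a limma adjusted p of 0.00821, and 3.82% of probes lay farther from 0. In mixture 2 it was -0.49 (SE 0.339, limma adjusted p 0.399), and 41.7% of probes lay farther from 0. The difference between the mixtures, -1.37 (SE 0.480), had a limma adjusted p of 0.147 and did not pass. It was -1.61 and passed (limma adjusted p 0.0262) when replicate 2 of mixture 1 was left out, and it was -0.88 (0.481) when replicate 2 of mixture 2 was.

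ATM (Entrez gene 472, spots 899 and 900) encodes the kinase that phosphorylates checkpoint and repair proteins at a break. It lay at 0.63 and -1.08 in mixture 1 and at 0.43 and -0.29 in mixture 2, so each mixture had 1 array on either side of 0. Its duplicate spots were far apart: on replicate 1 of mixture 1 they were at -0.32 and 1.59, and 95.6% of probes had a smaller mean difference between spots. The fitted values were -0.22 (SE 0.423, limma adjusted p 0.690) and 0.071 (SE 0.423, limma adjusted p 0.934). The 95% interval in mixture 1 ran from -1.19 to 0.74, so a change by a factor of 2 in the negative direction lies inside it.

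UVRAG (Entrez gene 7405, spots 1785 and 1786) was found through its ability to complement ultraviolet sensitivity, and its product acts with Beclin 1 in autophagy and also in end joining. It lay at 0.73 and 0.61 in mixture 1 and at 1.20 and 0.24 in mixture 2. All 4 arrays were positive, and both arrays of mixture 1 lay between those of mixture 2. On replicate 1 of mixture 2 it lay above 98.6% of probes, and on the other arrays above 66.7% to 70.7%. As deposited, its spots on replicate 2 of mixture 2 were at -0.25 and -0.32, so its side on that array comes from the centring. The fitted values were 0.67 (SE 0.327, limma adjusted p 0.126) in mixture 1 and 0.72 (SE 0.327, limma adjusted p 0.256) in mixture 2.

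**Figure D2:**
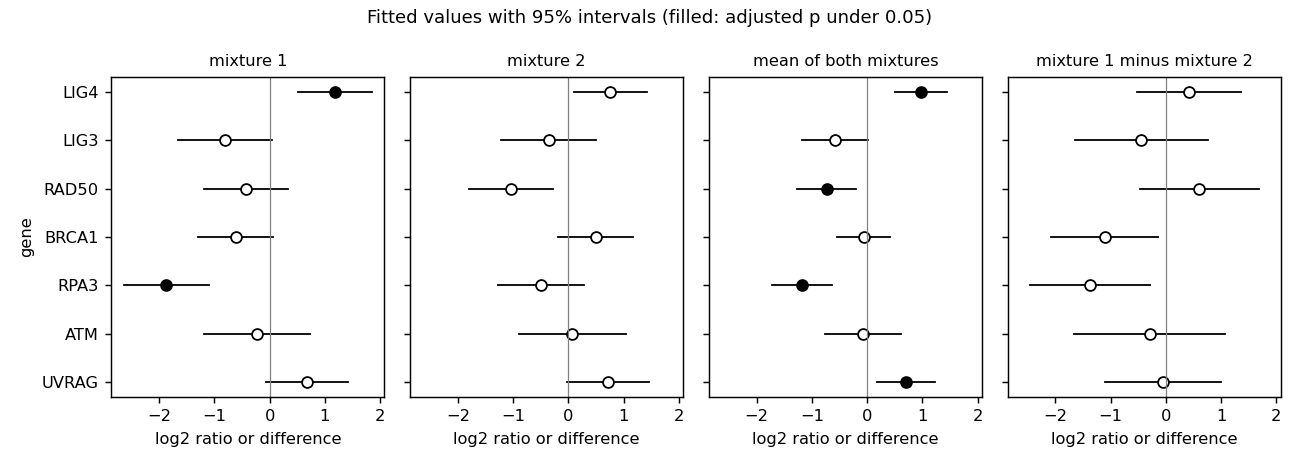
Fitted log2 ratios (horizontal axes, mixture differences in the last panel) of the 7 genes (vertical axis) with 95% intervals from the fit over all 4 arrays. Filled points passed: LIG4 and RPA3 in mixture 1, those 2 with RAD50 and UVRAG in the mean of both mixtures, and none elsewhere. Of all probes, 43.1% passed in mixture 1 and 38.7% in the mean of both mixtures.

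In mixture 1, 2 of the 7 genes passed, LIG4 on the positive and RPA3 on the negative side, where 43.1% of all probes passed. A count of 2 in 7 is below that share. The median of the 7 log2 ratios was -0.43, against -0.027 over all probes, and the median size was 0.67 against 0.80. LIG4 did not pass once the arrays were brought to a common spread (0.91, limma adjusted p 0.0510) or once ratios were adjusted for the agreement of duplicate spots (0.53, limma adjusted p 0.241). UVRAG passed with the 2 spots kept as separate values (0.67, limma adjusted p 0.0468). RPA3 passed in all 12 alternatives that gave it a value, at -2.11 to -1.43 (limma adjusted p at most 0.0405). These are not all separate: leaving out either array of mixture 2 and fitting mixture 1 alone gave the same fit (-1.87).

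In mixture 2, 0 of the 7 genes passed, as did 0% of the 1152 probes. At an unadjusted p under 0.05 in limma there were 2 of the 7 genes, LIG4 and RAD50, and 226 probes. RAD50 was among the probes farthest from the middle here, with 5.12% of them farther, against 73.3% in mixture 1. It passed with the 2 arrays of mixture 2 fitted alone (-1.03, limma adjusted p 0.0240). Leaving out either array of mixture 1 gives that same fit for mixture 2 and is no separate support. It also passed without centring (-1.52, limma adjusted p 0.0227), with the arrays brought to a common spread (-1.57, limma adjusted p 0.0223) and with quantile normalization (-1.38, limma adjusted p 0.0390). LIG4 passed in the last 2 of these settings (1.08 and 1.13, limma adjusted p 0.0361 and 0.0390).

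In the mean of both mixtures 4 of the 7 genes passed, where 38.7% of all probes passed. LIG4 lay at 0.97 (SE 0.207, 4 arrays, limma adjusted p 0.0108), UVRAG at 0.70 (SE 0.231, limma adjusted p 0.0416), RPA3 at -1.18 (SE 0.240, limma adjusted p 0.0106) and RAD50 at -0.73 (SE 0.236, limma adjusted p 0.0389). A count of 3 would have been close to that share. The other three lay at -0.58 (LIG3, limma adjusted p 0.111), -0.060 (BRCA1) and -0.076 (ATM). The median size of the 7 was 0.70, against 0.52 over all probes. Both mixtures share RT210B on every array, so this mean also carries whatever is particular to that 1 control sample.

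LIG4 and UVRAG were the members positive on all 4 arrays after centring, as were 25.8% of all probes, and positive on all 8 spots, as were 21.7%. None of the 7 was negative on all 4 arrays, against 19.9% of probes. RPA3, RAD50 and LIG3 were each negative on 3 arrays.

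**Figure D3:**
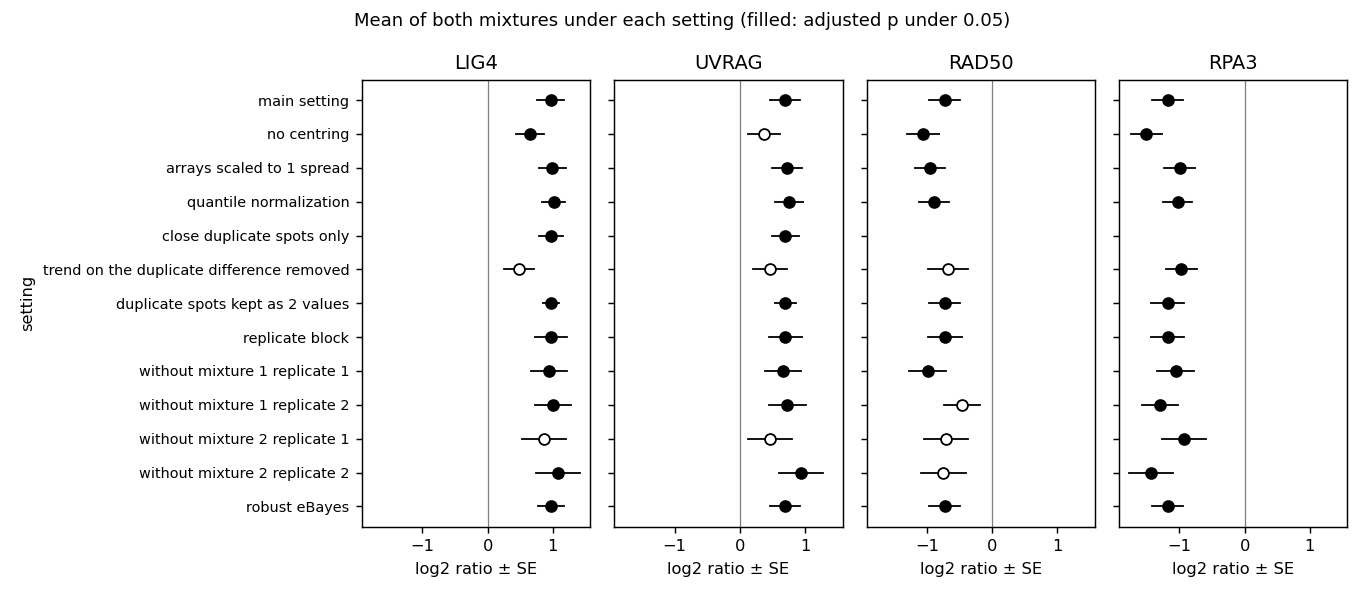
Log2 ratios with SE in the mean of both mixtures (horizontal axes) of the 4 genes that passed there, under the main setting and each alternative (vertical axis). RPA3 passed in every setting that gave it a value, and LIG4, UVRAG and RAD50 did not pass when the trend on the duplicate difference was taken out or without replicate 1 of mixture 2.

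The calls in the mean of both mixtures depended on single arrays for 3 of the 4 genes. Without replicate 1 of mixture 2, LIG4 lay at 0.86 (limma adjusted p 0.0550), UVRAG at 0.46 (0.317) and RAD50 at -0.71 (0.115), and LIG3 passed at -0.93 (0.0452). RAD50 also failed, at -0.47 (limma adjusted p 0.157), when replicate 2 of mixture 1 was left out, and at -0.75 (0.0824) when replicate 2 of mixture 2 was. LIG3 passed when replicate 1 of mixture 1 was left out (-0.69, limma adjusted p 0.0356) and when no centring was done (-0.91, limma adjusted p 0.0236), and UVRAG failed without centring (0.37, limma adjusted p 0.209), where LIG4 lay at 0.65 and passed (0.0341). RPA3 stayed past the threshold in all 11 alternatives that gave it a value, at -1.51 to -0.93 (limma adjusted p 6.34e-05 to 0.0440).

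In the mean of both mixtures, the members on the positive side were those with close duplicate spots. These were LIG4 and UVRAG, which had mean spot differences of 0.029 and 0.16 (log2), under the median of 0.37 over all probes. The other 5 members had mean differences of 0.45 to 1.12, above that median. In mixture 2 alone this did not hold, since BRCA1 (0.49) and ATM (0.071) were positive there with mean spot differences of 0.64 and 1.12. When a smooth trend of the ratio against this difference was taken out within each array, LIG4 lay at 0.48 (limma adjusted p 0.161), UVRAG at 0.46 (0.227) and RAD50 at -0.67 (0.145) in the mean of both mixtures, and RPA3 at -0.97 still passed (0.0399). Spot brightness, which could bear on both measures, was not used here, and its part in these values was not tested.

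**Figure D4:**
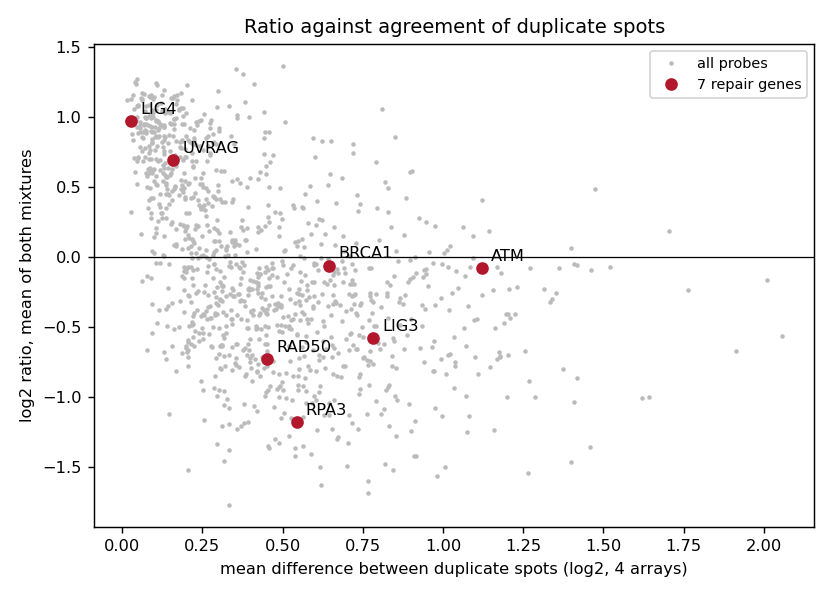
Log2 ratio in the mean of both mixtures (vertical axis) against the mean difference between the 2 spots of a probe over 4 arrays (horizontal axis), for all 1152 probes in grey and the 7 genes in red. Probes with close spots lie mostly above 0, LIG4 and UVRAG among them.

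Between the mixtures 0 of the 7 genes and 0% of 1152 probes passed in limma, while RPA3 and BRCA1 were among 275 probes with an unadjusted p under 0.05. The differences of mixture 1 minus mixture 2 were 0.42 for LIG4, 0.61 for RAD50, -0.052 for UVRAG, -0.30 for ATM and -0.44 for LIG3, with SEs of 0.413 to 0.598. Their 95% intervals all included 0, and the one of UVRAG, which reached least far from 0, ran from -1.10 to 0.999. These 2 arrays per mixture therefore could not show whether the genes behaved alike in the 2 pools.

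Further genes of DNA repair, the damage checkpoint, telomeres and autophagy were sought from 11 lists of 209 gene symbols. A probe with 1 symbol was found for 14 of them, and for no gene of the end joining, base excision, mismatch repair, Fanconi or autophagy lists. In mixture 1, 6 of the 14 passed, 3 on each side, in mixture 2 none did, and in the mean of both 5 passed, 3 positive and 2 negative. These shares are to be read beside the 43.1% and 38.7% of all probes.

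In the main setting the direct partners of the members did not pass in any of the 3 comparisons. BARD1, which forms the ubiquitin ligase with BRCA1, lay at 0.28 and 0.61 in mixture 1 and at 0.98 and 0.19 in mixture 2, positive on all 4 arrays after centring (on the last its deposited spots were at -0.30 and -0.38). Its fitted value was 0.45 (SE 0.317, limma adjusted p 0.277) in mixture 1 and 0.51 (0.0970) in the mean of both, where it passed over probes with close duplicate spots alone (0.0437) and with spots kept as 2 values (0.0262). BRCA1 minus BARD1 was -0.68 and -1.44 in mixture 1 and -0.28 and 0.11 in mixture 2, and it was not tested. RPA1, the large subunit that binds single-stranded DNA with RPA3 and was picked after its values were seen, lay at 0.45 and -0.23 in mixture 1 and at -1.0 and -0.54 in mixture 2. It passed in mixture 2 without centring (-1.25, limma adjusted p 0.0296) and at a common spread of the arrays (-1.09, 0.0368), and in the mean of both without centring (-0.66, 0.0387). RPA1 minus RPA3 was 2.56 and 1.40 in mixture 1 and -0.0077 and -0.54 in mixture 2, so the large difference between these subunits was seen on the arrays of mixture 1. On replicate 1 of mixture 1 the spots of RPA1 were 2.28 apart.

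In the post-replication repair list, where ubiquitin marks PCNA so that blocked forks can pass damage, the conjugating enzymes lay on opposite sides. UBE2A, the partner of RAD18, was at -2.63 and -1.65 in mixture 1 and at -1.23 and 0.066 in mixture 2. Its fitted value in mixture 1 was -2.14 (SE 0.394, limma adjusted p 0.00821). UBE2N, which builds the longer ubiquitin chain, was at 1.14 and 1.76 in mixture 1 and at 0.91 and 0.42 in mixture 2, with a fitted value in mixture 1 of 1.45 (SE 0.313, limma adjusted p 0.00974). Both also passed in the mean of both mixtures, at -1.36 and 1.06. UBE2N did not pass in mixture 1 after this adjustment for duplicate spots (1.03, limma adjusted p 0.0503).

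Both checkpoint genes measured were positive on all 4 arrays after centring. As deposited, both spots of TOPBP1 were negative on both arrays of mixture 2, at -0.39 and -0.043 on replicate 1 and at -0.26 and -0.21 on replicate 2, and both spots of WEE1 were negative on replicate 2, at -0.057 and -0.21, so the side there came from the centring. WEE1, the kinase that holds back mitosis, had a fitted value of 1.08 in mixture 1 (limma adjusted p 0.0234) and of 0.92 in the mean of both (0.0138). TOPBP1, which activates the checkpoint kinase ATR, had 1.11 (limma adjusted p 0.0180) and 0.69 (0.0303). Like LIG4 they had close duplicate spots, and after the same adjustment they lay at 0.51 and 0.43 in mixture 1 and passed in neither comparison (limma adjusted p 0.106 to 0.410). In mixture 1 neither passed without replicate 2 of that mixture (limma adjusted p 0.0654 and 0.107), at a common spread of the arrays (0.0725 and 0.0640) or after quantile normalization (0.0658 and 0.0639). In the mean of both, neither passed when replicate 1 of mixture 2 was left out (limma adjusted p 0.0998 and 0.117) or with no centring (0.0525 and 0.170), and TOPBP1 failed also when replicate 2 of either mixture was (0.0835 and 0.120).

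Of TFIIH, which opens DNA in nucleotide excision repair and in transcription, the kinase CDK7 and its cyclin CCNH passed in mixture 1 on the negative side, at -1.19 (limma adjusted p 0.0182) and -1.22 (0.0312). CDK7 also passed in the mean of both mixtures, at -0.77 (limma adjusted p 0.0258). In mixture 2 the arrays of CCNH were at 1.18 and -0.14. Neither passed in mixture 1 at a common spread of the arrays (limma adjusted p 0.0640 and 0.111) or after quantile normalization (0.0600 and 0.134). CDK7 failed there also without replicate 2 (limma adjusted p 0.0817) and after the duplicate-spot adjustment (0.0601), and CCNH without replicate 1 (-0.85, 0.127). In the mean of both, CDK7 failed when replicate 1 of mixture 2 was left out (-0.61, limma adjusted p 0.178), after the duplicate-spot adjustment (-0.72, 0.102) and with spots kept as 2 values (0.0517). TERT, the catalytic subunit of telomerase, lay at 0.27 and 0.28 in mixture 1 and at -0.33 and -0.57 in mixture 2 and did not pass (limma adjusted p 0.368 to 0.752 in the mixtures and their mean).

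**Figure D5:**
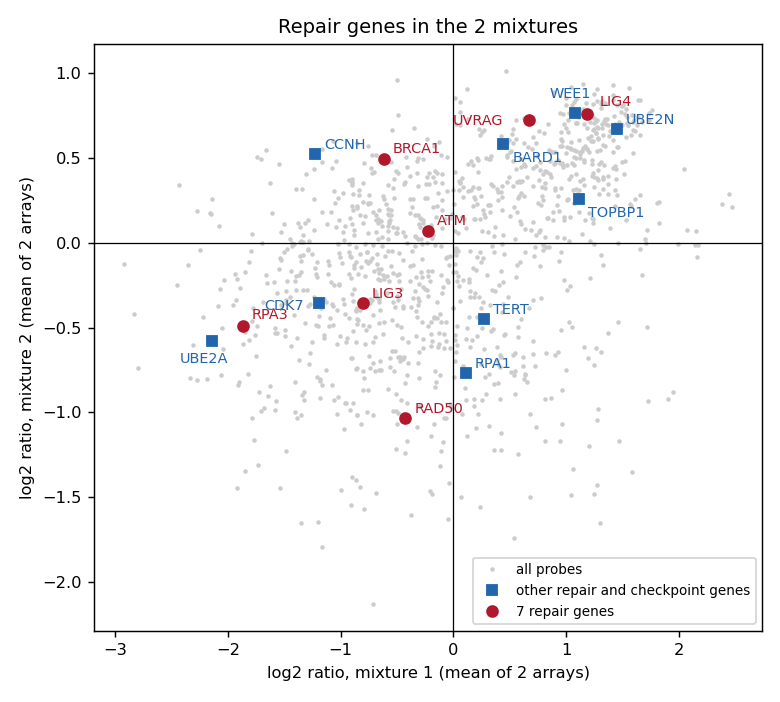
Fitted log2 ratios in mixture 1 (horizontal axis) and mixture 2 (vertical axis) for all 1152 probes in grey, the 7 genes in red and the further repair and checkpoint genes given here in blue. LIG4, UVRAG, WEE1, UBE2N, TOPBP1 and BARD1 lie positive in both mixtures (TOPBP1 at -0.23 in mixture 2 if arrays are not centred), and RPA3, RAD50, LIG3, UBE2A and CDK7 negative in both.

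For each of the 7 genes the most similar profiles were sought among the 343 other probes with 1 symbol, as the smallest Euclidean distance over the 4 centred array values. SETD2 (distance 0.126) and HOXB9 (0.157) were nearest to LIG4, where the median probe lay 2.55 away. ARCN1 (0.544) and UBE2A (0.574) were nearest to RPA3, RNF6 (0.213) and LAMA4 (0.434) to UVRAG, and GZMB (0.341) and CDH2 (0.434) to BRCA1. The nearest profiles of the other members were CDC45 (0.719) and CASP9 (0.752) for RAD50, TRIM27 (0.545) and PBX2 (0.657) for LIG3, and ZXDB (0.669) and EFNB1 (0.754) for ATM. With 4 values per gene these distances describe the arrays alone.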

How the data were processed

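The authors deposited log2 ratios, 1 value for each of 2304 spots on each of 4 arrays. Turned back into folds of at least 1, with negative values inverted, 100% of the deposited values were whole hundredths (tolerance 0.001). These folds, rather than the ratios themselves, had thus been rounded before the logarithm. Per the labels, normalization factors of 3.8 (mixture 1 replicate 2) and 1.169 (mixture 2 replicate 1) were used. Dyes, background correction, any filter on spots and what those factors scaled are not stated in those labels. No intensities were used, so signal over background is unknown, and the number of arrays limits the precision.

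Adjacent spots 2n-1 and 2n were averaged to 1152 probes, since named spots paired without exception and paired spots correlated at r 0.725 to 0.819. Names are those of the platform annotation at GEO, which holds mostly human gene symbols, although the RNA is Chinese hamster by its label. The symbol Phc1 is not in the human form. Hybridisation across species was not measured. Of the probes 350 had 1 symbol, 8 several and 794 are unnamed here.

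Each array was centred on its median probe. The test was that of limma 3.58.1 on centred values, run in R 4.3.3 (lmFit and eBayes, 1 mean per mixture over all 4 arrays, 2 residual and 6.69 prior degrees of freedom). Probes passed at a Benjamini-Hochberg adjusted p under 0.05 over all 1152 probes. The fit was tested on simulated data with the same spread on all 4 arrays and the same changes in both mixtures. The spread of the real arrays differed, so that test cannot show how the fit deals with unequal spread. RT210B entered as 1 control sample, so its own spread is left out.

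The members and lists were chosen with earlier results of these data known. The text gives all 7 members, the list genes that passed in a comparison or stood in lists with 1 or 2 measured genes, and the 2 nearest profiles of each member. RPA1 was added after its values were seen. The alternatives were no centring, arrays scaled to 1 spread, quantile normalization, probes with close duplicate spots, a lowess trend on the duplicate difference removed, duplicate spots kept as 2 values, the replicate number as a block, each array left out, robust eBayes, and a mixture fitted on its own arrays. The replicate numbers did not pair the arrays (r -0.098 between the mixtures' deviations).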

Additional observations from a re-analysis of the deposited data

Results flagged for a closer look

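BRCA1 lay on the negative side on both arrays of mixture 1 and on the positive side on both arrays of mixture 2. In mixture 1 its spots were at -1.19 and 0.39 on replicate 1. On replicate 2 a spot held the deposited value -0.8875, which spots of LIG3, ATM, CCNH and RFC3 also held on that array. The difference of mixture 1 minus mixture 2 was -1.11 (SE 0.423, 95% interval -2.07 to -0.15), and its limma adjusted p of 0.167 did not pass. The difference lay at -1.33 to -0.79 in the 11 alternatives that gave it a value, and it passed in none. Leaving out 1 array could not change its sign, since the arrays of the 2 mixtures lay on opposite sides of 0. The replicate block, robust eBayes and spots kept as 2 values do not alter the value itself. The constant sign in those settings is therefore no added support.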

How the results depend on the processing

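Counts of the 7 genes that passed moved by over 1.5 times as follows. In mixture 1, 1 gene passed with the arrays at a common spread, with only probes of close duplicate spots and with ratios adjusted for the duplicate difference. In mixture 2, 1 passed without centring and with that mixture fitted alone, and 2 with the arrays at a common spread or quantile normalized. In the mean of both, 2 passed with close duplicate spots only, since LIG4 and UVRAG were the members kept, and 1 with the adjustment. All probes past the threshold numbered 231, 239 and 220 in mixture 1 (common spread, quantile, adjustment), 206, 262, 218 and 113 in mixture 2 (no centring, common spread, quantile, fitted alone), 123 in the mean (adjustment) and 47, 15, 2 and 36 between the mixtures (no centring, close spots, spots kept as 2 values, replicate block). The replicate block changed no call of a member, and its 36 probes between the mixtures set beside 0 without it came from numbers that did not pair the arrays. Without centring, passing probes split 232 positive to 292 negative in mixture 1 and 124 to 434 in the mean, against 281 to 216 and 250 to 196 with it.

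With 1 array left out, members passing numbered 2 in mixture 1, 0 to 1 in mixture 2, 2 to 5 in the mean and 0 to 1 between the mixtures, and all probes 390 to 486, 0 to 113, 219 to 505 and 0 to 213. A mixture left with 1 array borrows the spread of the other.

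Some values changed sign without passing in either setting, and the cause was not tested. Not all of them were near 0. In mixture 2 the main values of UBE2A (-0.58) and CCNH (0.52) were larger in size than the median of 0.42 over all probes. In mixture 1, RPA1 lay at -0.058 without centring, and ATM (0.088), BARD1 (-0.010) and RPA1 (-0.084) turned with the adjustment. In mixture 2, ATM (-0.41) and TOPBP1 (-0.23) turned without centring and ATM (-0.025) at a common spread. In the mean, BRCA1 lay at 0.10 (common spread), 0.11 (quantile) and 0.066 (adjustment), with ATM at 0.29 and TERT at 0.086 in the last. Between the mixtures, ATM (0.020) and UVRAG (0.26) turned without centring, LIG4 (-0.17) and LIG3 (0.18) at a common spread and LIG4 (-0.23) with quantile normalization. With an array left out, values that changed sign ranged, in mixture 1, from -0.95 to 0.10 (RAD50), -1.08 to 0.63 (ATM) and -0.23 to 0.45 (RPA1). In mixture 2 they ranged from -0.29 to 0.43 (ATM), -0.99 to 0.0053 (RPA3), -0.14 to 1.18 (CCNH), -1.23 to 0.066 (UBE2A) and -1.05 to 0.33 (LIG3). In the mean they ranged from -0.17 to 0.048 (BRCA1) and -0.50 to 0.35 (ATM), and between the mixtures from -1.15 to 0.56 (ATM), -1.14 to 0.25 (LIG3) and -0.53 to 0.43 (UVRAG).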
